A study of Mus musculus with 2 samples.

Results

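AP-1 is a transcription factor made of pairs of leucine-zipper proteins, and 8 genes that encode such subunits were followed here across the cell types of the mouse utricle. They were Fos, Fosb and Fosl2 of the Fos family, Jun, Junb and Jund of the Jun family, and Atf3 and Batf3, which encode partners that bind DNA with Jun proteins. The 8 genes were taken by symbol as a list, with no threshold on a measured value, and all were present among the 31053 genes of the count tables. The utricle is a balance organ of the inner ear, and its sensory epithelium holds hair cells (HCs), which detect head movement, and supporting cells (SCs), which surround them. Single-cell libraries were made from this epithelium of wild-type mice at postnatal day 2 (P2) and at embryonic day 14 (E14). There was 1 library per age, so no difference between ages or classes could be tested against replicates, and age cannot be told apart from library. Both tissues were peeled off with thermolysin and made into single cells with warm Accutase, an enzyme mixture.

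Fos proteins pair with Jun proteins rather than with each other, while Jun proteins can also pair with each other, and the pair binds a short site in promoters and enhancers. Most of these genes belong to the immediate-early class, whose transcription starts within minutes of growth factor, calcium or stress signals that pass through MAP kinases, without new protein being made. Jund is the member known for steady expression in resting cells. Enzymatic dissociation of a tissue is itself known to raise immediate-early transcripts, and no cells fixed before dissociation were among the libraries analysed here. The levels in epithelial cells were therefore read beside those of the non-epithelial cells that went through the same dissociation.

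The sequences just before the start sites of 3 members are shown because these genes had some of the widest ranges of level across classes and because each holds a short element of the immediate-early kind. They are RefSeq sequences of the GRCm38.p6 build, 100 bases long, written 5′ to 3′ on the strand of the gene, with matched elements in capitals.
Fos, chr12:85473790-85473889, plus strand: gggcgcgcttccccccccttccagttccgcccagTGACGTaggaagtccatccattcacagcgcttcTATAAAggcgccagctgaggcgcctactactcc
Jun, chr4:95052223-95052322, minus strand: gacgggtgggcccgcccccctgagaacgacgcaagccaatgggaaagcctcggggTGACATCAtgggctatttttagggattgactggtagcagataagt
Atf3, chr1:191183334-191183433, minus strand: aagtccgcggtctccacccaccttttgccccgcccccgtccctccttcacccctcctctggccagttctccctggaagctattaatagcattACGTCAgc

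Searches of both strands used 4 sets of letters, and no matches overlapped. TGACGT, the core of the cAMP-response element, began 66 bases before the Fos start and stood on the opposite strand of Atf3 as ACGTCA, and 4.24% of 27025 RefSeq promoters held it in the same window. TGACATCA, the form bound by Jun with ATF partners, was found in Jun, against 2.04% of promoters. TATAAA, the TATA box, was found in Fos, against 5.95%. TGACTCA, the classical AP-1 site, was in none of the 8 windows and in 1.83% of promoters. These matches describe letters only. For Atf3 the RefSeq start lay 34706 bases inside the GENCODE gene, so the window is that of a shorter transcript. RefSeq starts lay 671 bases inside the GENCODE gene for Fosl2 and 567 bases inside it for Batf3, and upstream of it for Jund, so their windows too are those of the RefSeq start only.

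In GENCODE coordinates on GRCm38, Fos lies on chromosome 12 (85473890 to 85477273, plus strand), Fosb on chromosome 7 (19302696 to 19310051, minus) and Fosl2 on chromosome 5 (32135801 to 32157842, plus). Jun lies on chromosome 4 (95049034 to 95052222, minus), Junb on chromosome 8 (84974484 to 84978718, minus) and Jund on chromosome 8 (70698949 to 70700616, plus). Atf3 and Batf3 are both on chromosome 1 (191170296 to 191218039, minus, and 191097847 to 191108945, plus). Jun overlaps the antisense gene Junos, Jund the antisense gene Gm11175 and Junb the coding gene Prdx2 on the other strand. How strand was treated in counting was not stated in the sources used here.

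The P2 library held 6251 barcodes and 57003553 UMIs (counts of single captured RNA molecules), and the E14 library held 15636 barcodes and 122892080 UMIs. After filters on depth, mitochondrial share and doublets, 3877 P2 cells (median 9828 UMIs) and 10138 E14 cells (median 6717.5 UMIs) remained, and the members held 287795 and 311577 of their UMIs. Of the kept cells, 10 barcode sequences occurred in both libraries. Clusters were named from marker genes only, with the 8 members left out of the clustering, and are called "like" a type for that reason. At P2 the classes were HC-like (723 cells), SC-like (822), nonsensory epithelial-like (91) and mesenchymal-like (32). At E14 they were HC-like (158), SC-like (727), nonsensory epithelial-like (402), mesenchymal-like (4021), glial-like (387), immune-like (281), endothelial-like (115), pericyte-like (56), melanocyte-like (49) and red blood cell-like (61). Unnamed clusters held 57.0% of P2 cells and 38.3% of E14 cells. A level below is the members' UMIs summed over the cells of a class, per 1000000 UMIs of that class (CPM), with an exact 95% Poisson interval that covers counting error only.

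The 8 members differed by several orders of magnitude in level, and the same members were the most abundant in both libraries. Fos, the founding partner of Jun, was at 2284 CPM over all kept P2 cells and 1408 CPM over all kept E14 cells. Jun was at 1928 CPM at P2 and 810 CPM at E14, Jund at 1159 and 688 CPM, and Junb at 564 and 509 CPM. Fosb, a Fos relative induced with it, was at 231 CPM at P2 and 183 CPM at E14, and Atf3, a stress-induced repressor or activator depending on its partner, was at 145 and 226 CPM. Fosl2 (1.97 and 6.71 CPM) and Batf3 (0.351 and 3.44 CPM), which is best known from dendritic cells, were near the limit of detection, with 90 UMIs of Fosl2 and 16 UMIs of Batf3 in all kept P2 cells. Levels of different genes in such a 3′ tag assay carry no length term, but capture can still differ between genes.

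**Figure D1:**
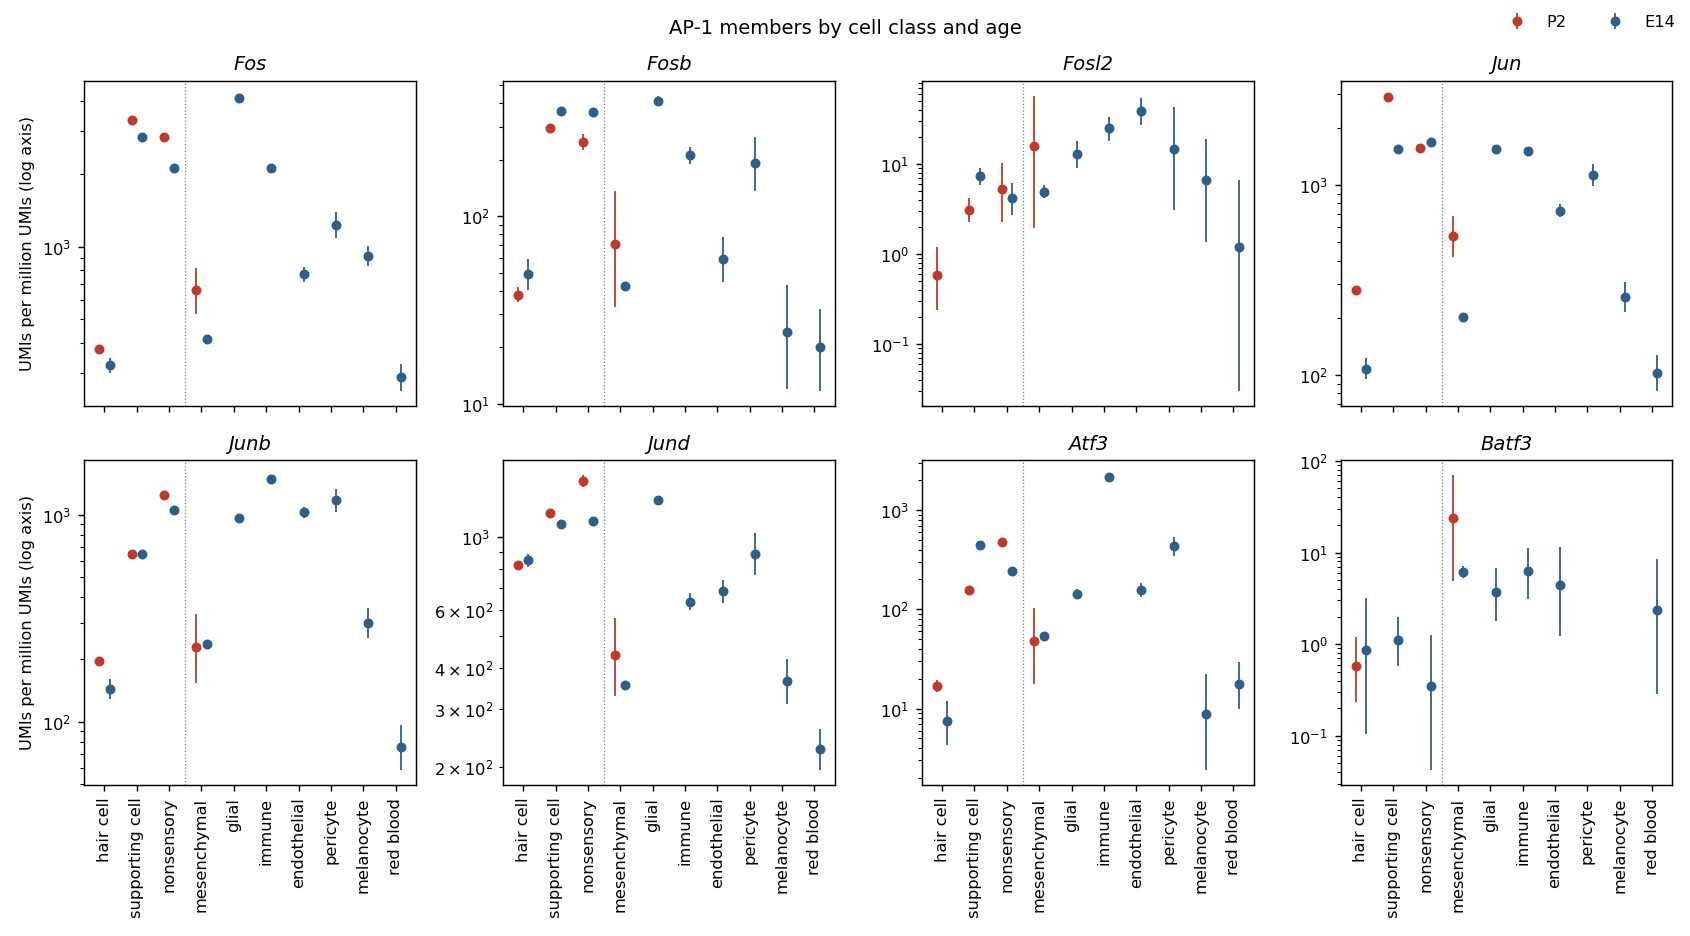
Level of each AP-1 member in CPM (log axis, one panel per gene) by cell class, P2 in red to the left of E14 in blue, with exact 95% Poisson intervals. Classes with 0 UMIs are not drawn, and the dotted line divides epithelial classes on its left from non-epithelial ones. Fos was lowest in red blood cell-like and HC-like cells and highest in glial-like cells (4116 CPM).

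HC-like cells had far less of most members than SC-like cells of the same library, at both ages. Fos was at 379 CPM (368 to 390) in P2 HC-like cells, against 3317 CPM (3288 to 3347) in P2 SC-like cells. At E14 it was at 323 CPM (300.1 to 347) in HC-like cells, against 2821 CPM (2790 to 2853) in SC-like cells. The HC-like over SC-like ratio was thus 0.114 at each age (0.111 to 0.118 at P2 and 0.106 to 0.123 at E14), and no HC-like cluster reached the lowest SC-like cluster of its library.

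Jun, the main partner of Fos, differed more. It was at 281 CPM in P2 HC-like cells, against 2924 CPM in P2 SC-like cells (ratio 0.0961), and at 108 CPM in E14 HC-like cells, against 1556 CPM in E14 SC-like cells (ratio 0.0694). Fosb followed Fos, with ratios of 0.129 at P2 and 0.134 at E14. Junb, which can restrain or replace Jun, differed less, with 197 CPM in P2 HC-like cells against 643 CPM in SC-like cells (ratio 0.307), and 145 against 644 CPM at E14 (ratio 0.224).

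Jund was the exception among the abundant members. It was at 820 CPM (804 to 837) in P2 HC-like cells, against 1184 CPM (1166 to 1202) in SC-like cells, a ratio of 0.693 (0.676 to 0.710). At E14 it was at 850 CPM (812 to 888) in HC-like cells, against 1095 CPM (1076 to 1115) in SC-like cells, a ratio of 0.776 (0.739 to 0.814). Jund was therefore lower in HC-like cells than in SC-like cells beyond counting error, but by less than 2-fold. As a share of all UMIs of the 8 members, Jund took 47.3% in P2 HC-like and 57.3% in E14 HC-like cells, against 13.9% in P2 SC-like and 15.8% in E14 SC-like cells. Fos took 21.9% and 21.8% in HC-like cells at P2 and E14, against 38.9% and 40.7% in SC-like cells.

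Atf3 showed the widest gap at E14. It had 17 UMIs in all E14 HC-like cells (7.43 CPM), against 449 CPM in E14 SC-like cells, a ratio of 0.0166 (0.00963 to 0.0265). At P2 it was at 17.0 CPM in HC-like cells, against 157 CPM in SC-like cells, a ratio of 0.108 (0.0931 to 0.125). Fosl2 had 7 UMIs in P2 HC-like cells against 46 in SC-like cells, and 0 in E14 HC-like cells against 78 in SC-like cells, a ratio of 0.179 with the HC-like class set to a floor of 3 counts (upper end of the counting interval 0.226). Batf3 had 7 UMIs in P2 HC-like cells and 0 in SC-like cells, and 2 against 12 at E14, too few to compare.

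A gene was called in a comparison when it had at least 10 UMIs in one group and its CPM ratio was at least 2-fold. At P2, 6 of the 7 members with enough UMIs were at least 2-fold lower in HC-like cells and 0 were higher, where 23.0% of 14370 genes were lower and 20.8% higher. At E14, 6 of 8 members were lower and 0 higher, where 22.0% of 13573 genes were lower and 18.1% higher. The median log2 ratio of the members was −2.95 at P2 and −2.69 at E14, beside 0.01 and −0.00 for all genes compared. Transcripts of SC markers in HC-like cells hold carried-over RNA and any that HC-like cells make themselves. At P2 their HC-like over SC-like ratios had a median of 0.0533 and ran from 0.0312 (Otop1) to 0.793 (Sox2). At E14 the median was 0.0232, with a range from 0.00391 (Tectb) to 0.491 (Sox2). The high Sox2 values are therefore not read as a measure of carry-over. The part of carried-over RNA in the members' HC-like levels was not tested.

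**Figure D2:**
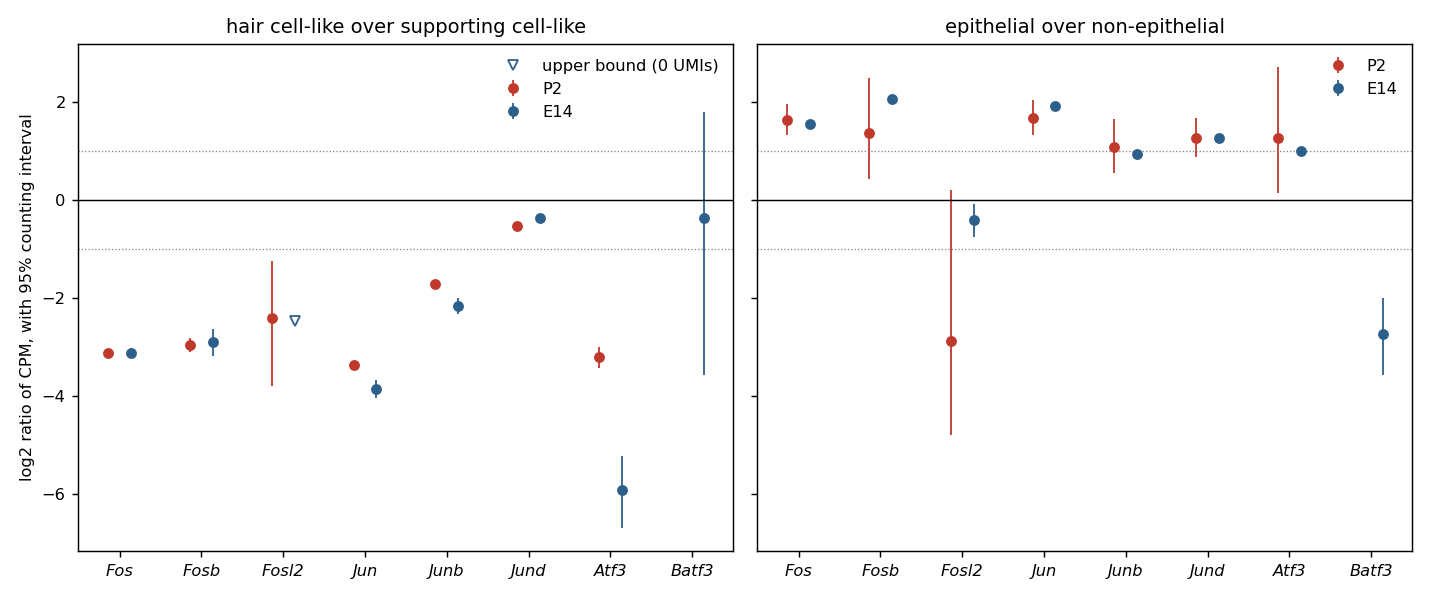
Log2 ratio of CPM for each AP-1 member, HC-like over SC-like (left) and epithelial over non-epithelial (right), P2 in red and E14 in blue, with 95% counting intervals and dotted lines at 2-fold. Members with too few UMIs are not drawn. On the left Jund sits closest to 0 of the members with narrow intervals, at ratios of 0.693 and 0.776.

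The HC-like clusters were not alike. At P2 the sum of the 8 members was 2690 CPM in the cluster led by Hsd11b2 that carried Atoh1 and Grp, genes of young HCs, and 1838 CPM in the cluster led by Grp and Dll3. It was 1743 CPM in the cluster led by Gm4791, 1152 CPM in that led by Spp1, a gene of type I HCs, and 962 CPM in the small cluster led by Ocm (33 cells), which also had the highest median mitochondrial share (9.12%). The range across these clusters lay mostly in Jun and Fos, and in proportion also in Atf3. Fos was between 145 and 623 CPM. Jun was at 846 CPM in the Hsd11b2 cluster and 173 to 233 CPM in the others, and Atf3 at 55.2 CPM in it and 3.65 to 17.2 CPM in the others. Jund, by contrast, was between 730 and 872 CPM in all but the Ocm cluster (511 CPM). At E14 the cluster led by Ccer2 had a sum of 1615 CPM and that led by Lbx2, which also carried Ocm, 1159 CPM. An unnamed E14 cluster of 116 cells led by Grp and Pou4f3, an HC gene, had 3806 CPM.

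SC-like clusters also varied, with no overlap with the HC-like clusters of the same library in Fos or Jun. At P2, Fos was between 2703 CPM (cluster led by Tectb) and 4747 CPM (cluster led by 1500015O10Rik), and Jun between 1546 and 3606 CPM. At E14, Fos was between 1587 CPM (led by Zpld1) and 3498 CPM (led by Tectb), and Jun between 815 and 1747 CPM. The single highest Fos level of any P2 cluster was in an unnamed one led by Sostdc1 and Zpld1 (61 cells, 5463 CPM), which also held the highest Junb, Jund, Fosb and Atf3 of that library and carried 3 nonsensory markers. The nonsensory epithelial-like class was below SC-like cells in Fos (2846 CPM at P2 and 2115 CPM at E14) and above them in Junb (1241 and 1056 CPM). Its Atf3 was above that of SC-like cells at P2 (476 against 157 CPM) and below it at E14 (246 against 449 CPM). Its clusters lay on both sides of the SC-like class in Atf3 at each age, and in Fos at P2. The P2 cluster led by Kcne1 had 1413 CPM of Fos and 120.1 CPM of Atf3, and that led by Nupr1 had 3445 and 625 CPM. At E14, Atf3 was at 183 CPM in the cluster led by Rspo3 and 538 CPM in that led by Pyy.

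At E14, epithelial cells had more of most members than the pooled non-epithelial cells of the same dissociation, but this did not hold for each non-epithelial class or for HC-like cells. HC-like cells were below the pooled non-epithelial cells in Fos (323 against 779 CPM), Jun (108 against 377 CPM), Junb (145 against 371 CPM), Fosb (48.9 against 77.7 CPM) and Atf3 (7.43 against 165 CPM). Their Jund was above (850 against 443 CPM). Pooled over each class, HC-like cells were also below mesenchymal-like cells in Fos (414 CPM), Jun (201 CPM), Junb (238 CPM) and Atf3 (53.7 CPM). In Jund (354 CPM) and Fosb (42.2 CPM) they were not. Fos in the 6 mesenchymal-like clusters ran from 95.9 to 1176 CPM. Their median (288 CPM) lay between the 2 HC-like clusters (221 and 365 CPM). With cells thinned to equal depth, Fos was detected in more HC-like than mesenchymal-like cells (55.7% against 40.0%). The shares were close for Jun (30.4% and 30.8%) and Junb (36.1% and 34.7%), and lower in HC-like cells for Atf3 (1.27% and 8.85%). Fos was at 2299 CPM in the 1287 epithelial cells, against 779 CPM in the 4970 non-epithelial cells, a ratio of 2.95 (2.91 to 2.99). The ratio was 4.19 for Fosb, 3.77 for Jun, 2.42 for Jund, 2.02 for Atf3 and 1.91 for Junb. Fosl2 went the other way (0.749, 0.591 to 0.944), as did Batf3 (0.150, 0.0840 to 0.249, 16 against 212 UMIs). Of the 8 members, 5 were at least 2-fold higher and 1 at least 2-fold lower in epithelial cells, where 21.4% of 15977 genes were higher and 15.2% lower.

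Mesenchymal-like cells were 4021 of the 4970 pooled non-epithelial cells and had the lowest Fos (414 CPM) of the large classes. They held 12528 of the 28923 pooled Fos UMIs and 1624 of the 6115 pooled Atf3 UMIs. Glial-like cells held 11047 of these Fos UMIs, and immune-like cells held 3857 of these Atf3 UMIs. Against mesenchymal-like cells alone the E14 epithelial ratio was 5.55 for Fos, 7.71 for Fosb, 7.06 for Jun and 6.19 for Atf3, and Fosl2 turned to 1.11. Without glial-like cells the Fos ratio was 4.43, and Atf3 was at 1.998, just under the 2-fold line. Without immune-like cells the Atf3 ratio was 5.20. These 3 settings were chosen after the levels by class had been seen.

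Glial-like cells had the highest Fos of all named classes. Fos was at 2821 CPM in E14 SC-like cells, against 4116 CPM (4040 to 4194) in glial-like cells, a ratio of 0.685. E14 SC-like cells were also below glial-like cells in Fosb (366 against 414 CPM) and Jund (1095 against 1294 CPM), while their Jun did not differ beyond counting error (1556 against 1543 CPM). After glial-like and SC-like cells, the order of Fos at E14 was immune-like (2118 CPM) and nonsensory epithelial-like (2115 CPM), which did not differ, then pericyte-like (1232 CPM), melanocyte-like (915 CPM) and endothelial-like cells (768 CPM). For Jund the order after glial-like cells was nonsensory epithelial-like (1121 CPM) and SC-like cells, whose intervals overlap, then pericyte-like (891 CPM) and HC-like cells (850 CPM), whose intervals overlap too, and endothelial-like (685 CPM), immune-like (636 CPM), melanocyte-like (365 CPM) and mesenchymal-like cells (354 CPM). The glial-like cells themselves carried almost no epithelial RNA: the summed level of 8 pan-epithelial genes was 32.8 CPM in them, against 5019 CPM in E14 SC-like cells.

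Immune-like cells stood out in Atf3, a gene that restrains inflammatory transcription in macrophages. Atf3 was at 2178 CPM (2110 to 2248) in immune-like cells, above the next E14 class in order, SC-like cells at 449 CPM, which itself did not differ from pericyte-like cells (431 CPM, 345 to 531) beyond counting error. It took 26.6% of the members' UMIs there and was highest in the cluster led by Cxcl2 and C1qa, with 2483 CPM. At E14 Junb was also highest in immune-like cells (1492 CPM), followed by pericyte-like (1173 CPM, 1028 to 1332), nonsensory epithelial-like (1056 CPM) and endothelial-like cells (1025 CPM, 960 to 1094), whose intervals overlap in part. Fosl2 was highest in endothelial-like cells (39.2 CPM, 27.3 to 54.5) and immune-like cells (24.8 CPM), and Batf3 was at 6.21 CPM in immune-like and 6.11 CPM in mesenchymal-like cells.

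Mesenchymal-like clusters of E14 spanned Fos levels between 95.9 CPM (led by Zic4) and 1176 CPM (led by Aspn), and none reached the lowest SC-like cluster. Red blood cell-like cells should make little of these transcripts and give a measure of foreign RNA, which may be higher in them than in other classes. E14 HC-like cells overlapped them in Fos (323 CPM, 300.1 to 347, against 289 CPM, 254 to 327) and in Jun (108 CPM against 103 CPM). HC-like cells of E14 were above them in Jund (850 CPM against 226 CPM), and the Atf3 intervals overlapped (7.43 CPM, 4.33 to 11.9, against 17.8 CPM, 9.94 to 29.3). The red blood cell-like class carried pan-epithelial genes at 262 CPM in sum, against 32.8 CPM in glial-like and 70.2 CPM in mesenchymal-like cells of E14. Its levels may thus lie above the free RNA in other classes, and an overlap with it does not show that HC-like RNA was free RNA.

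At P2 the only non-epithelial class was 32 mesenchymal-like cells with a median of 1767.5 UMIs, so the same comparison was weak. The epithelial over non-epithelial ratio was 3.11 for Fos (2.51 to 3.90), 3.21 for Jun, 2.57 for Fosb, 2.39 for Jund, 2.11 for Junb and 2.42 for Atf3. Of 7 members compared, 6 were at least 2-fold higher and 1 lower (Fosl2, on 2 UMIs and with an interval that spans 1), where 12.0% of 14965 genes were higher and 41.0% lower. The 32 cells held pan-epithelial genes at 1167 CPM, against 5158 CPM in P2 SC-like cells, so they were not clean. A setting that left out cells above 5% mitochondrial UMIs also scored doublets, clustered and named the cells anew. Its non-epithelial class may thus hold other cells than the 32 above. Under that setting 5 of these ratios were below 1: Fosb 0.472, Jun 0.869, Junb 0.573, Jund 0.787 and Atf3 0.315. The part of cells with a high mitochondrial share in this change was not tested.

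Between ages the members did not move together, and the direction differed between classes. In SC-like cells Fos was at 3317 CPM at P2 and 2821 CPM at E14, a ratio of 1.18 (1.16 to 1.19). Jun was at 2924 CPM at P2, against 1556 CPM at E14 (ratio 1.88, 1.85 to 1.91), under the 2-fold line. Junb did not differ (643 CPM at P2 and 644 CPM at E14, ratio 0.998, 0.967 to 1.03) and Jund was at a ratio of 1.08. Atf3 was at 157 CPM at P2, against 449 CPM at E14, a ratio of 0.350 (0.333 to 0.368). Fosl2 had a ratio of 0.426 (46 UMIs at P2 and 78 at E14), and Batf3, with 0 UMIs at P2 and 12 at E14, was at 0.180 with the P2 class set to the floor of 3 counts (upper end 0.260). Of 8 members, 0 were at least 2-fold higher and 3 lower at P2, where 12.0% of 14023 genes were higher and 9.68% lower.

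The SC-like class was made of different clusters at each age, and Fos, Jun and Jund turned direction with the cluster compared. At E14 the SC-like clusters of 194, 93 and 52 cells had Zpld1 among their leading genes, and no P2 SC-like cluster did. Between the clusters with the most Tectb (led by Tectb at both ages, 120 P2 and 388 E14 cells), the P2 over E14 ratio was 0.773 for Fos, 0.885 for Jun, 0.612 for Jund, 0.640 for Junb and 0.389 for Fosb. Atf3 stayed low there, at 0.238. These clusters may not be the same cell type. Otol1, Otop1 and Tecta counted as markers only in the E14 one, and Hes5 only in the P2 one. The P2 one was also the lowest P2 SC-like cluster in Fos, Jun, Jund, Junb, Fosb and Atf3. Over all clusters rich in the epithelial gene Epcam other than HC-like ones, the P2 over E14 ratio was 1.31 for Fos, 1.82 for Jun and 0.591 for Atf3. Both settings were added after seeing the data.

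The HC-like class too was made of different clusters at each age. In HC-like cells Jun was at 281 CPM at P2, against 108 CPM at E14, a ratio of 2.61 (2.29 to 2.98). Fos was at a ratio of 1.17 (1.09 to 1.27), Junb of 1.36, Jund of 0.965 (0.920 to 1.01) and Fosb of 0.779. Atf3 was at 2.29 (1.39 to 4.0), on 203 UMIs at P2 and 17 at E14, an E14 level whose interval overlaps that of red blood cell-like cells. Of 6 members compared, 2 were at least 2-fold higher and 0 lower, where 9.68% of 13138 genes were higher and 5.3% lower.

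Both calls rested on which clusters were included. Without the P2 cluster led by Hsd11b2 the ratio was 1.78 (1.56 to 2.04) for Jun and 1.47 (0.880 to 2.62) for Atf3, so 0 members were called. With the unnamed E14 cluster led by Grp and Pou4f3 added to the HC-like cells, Jun was at 1.08 (0.995 to 1.17), Fos at 0.692 and Atf3 at 0.25 (0.205 to 0.306). Both settings were added after seeing the data. Under the other alternatives Jun was as low as 1.19 (stricter filter), Fos as low as 0.759 (resolution 0.5), and Atf3 was below 1 in 4 of them (0.348 to 0.703).

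In nonsensory epithelial-like cells no member passed 2-fold. Atf3 came nearest with a ratio of 1.94 (476 CPM at P2 and 246 CPM at E14), Fos was at 1.35, Jun at 0.925 and Fosb at 0.689. The class held a different mix of clusters at each age. Between the clusters with the most Kcne1, the Atf3 ratio was 0.658 (120.1 CPM at P2 and 183 CPM at E14), and between those with the most Prss56 it was 1.16 (625 CPM at P2 and 538 CPM at E14). These settings were added after seeing the data. Of 7 members, 0 were higher and 0 lower, where 9.29% of 12487 genes were higher and 12.9% lower. In mesenchymal-like cells Fos was at 1.59, and 3 of 8 were higher (Jun 2.68, 2.08 to 3.41, with Fosl2 and Batf3 on 2 and 3 P2 UMIs) and 0 lower, but there 43.9% of 14066 genes were higher and 7.23% lower. Over all kept cells Jun was higher at P2 (2.38) and Fosl2 (0.294) and Batf3 (0.102) lower, where 20.1% of 17444 genes were higher and 17.7% lower. Mesenchymal-like cells, of which E14 had 4021 and P2 had 32, held 185 of the 280 Batf3 UMIs and 149 of the 545 Fosl2 UMIs of E14.

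**Figure D3:**
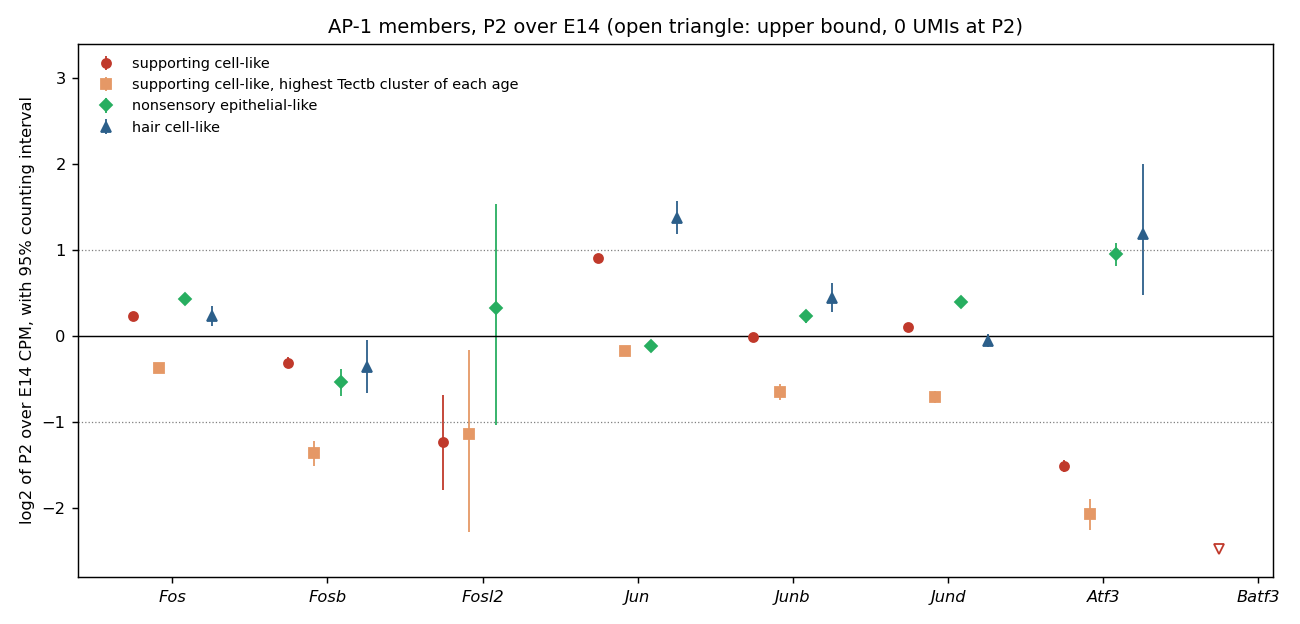
Log2 of the P2 over E14 CPM ratio of each member in 4 groups of cells, with 95% counting intervals and dotted lines at 2-fold. Jun and Atf3 in HC-like cells lie above 2-fold, Atf3 in SC-like cells lies below, and the Tectb-highest SC-like clusters lie below 0 for every member drawn.

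The share of cells with at least 1 UMI also differed between HC-like and SC-like cells. To compare shares at one depth, cells were thinned to 4000 UMIs and shallower cells were left out, which kept 717 of 723 HC-like and 779 of 822 SC-like cells at P2, and 158 of 158 and 568 of 727 at E14. Fos was detected in 62.5% of thinned P2 HC-like cells (58.8 to 66.0, exact binomial) and 97.0% of P2 SC-like cells, and in 55.7% of E14 HC-like (47.6 to 63.6) and 97.4% of E14 SC-like cells. Before thinning the same shares were 88.9% and 98.1% at P2, and 84.2% and 93.5% at E14. In red blood cell-like cells the thinned share was 38.3% (26.1 to 51.8, 60 cells), an interval that overlaps that of E14 HC-like cells. Class medians before thinning were 16826 and 11535.5 UMIs for P2 HC-like and SC-like cells, 14614.5 and 8207 at E14, and 12967 for red blood cell-like cells.

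Jund was detected in nearly all sensory cells whatever the class. Its thinned share was 93.2% in HC-like and 95.6% in SC-like cells at P2, and 96.8% and 93.8% at E14, against 45.0% in red blood cell-like and 53.8% in mesenchymal-like cells. Atf3 was detected in 5.58% of P2 HC-like and 28.6% of P2 SC-like cells, and in 1.27% of E14 HC-like and 55.5% of E14 SC-like cells. The E14 HC-like share (2 of 158 cells) was no higher than the 3.33% of red blood cell-like cells (2 of 60), so it is not read as expression. In the 129 of 281 immune-like cells deep enough, the Atf3 share was 82.9%, and it was 67.3% over all 281 cells unthinned (median 3357 UMIs).

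Per cell, Fos was spread over most SC-like cells and gathered in fewer of the mesenchymal-like ones. The median thinned Fos count was 13 UMIs in P2 SC-like cells (10th to 90th percentile 3 to 24), 11 in E14 SC-like cells and 13 in glial-like cells (90th percentile 35). It was 1 in HC-like cells of each age and 0 in mesenchymal-like cells. The tenth of cells with the most Fos held 66.0% of all Fos UMIs in E14 mesenchymal-like cells, against 21.7% in P2 SC-like, 24.7% in E14 SC-like and 28.5% in glial-like cells. A low mean count by itself raises this share. In HC-like cells, with a mean near that of mesenchymal-like cells (1.50 at P2 and 1.28 at E14, against 1.75), it was 40.3% and 43.8%. The mesenchymal-like class also pools clusters that differ in Fos (95.9 to 1176 CPM). Within glial-like cells, Junb was detected in 87.0% of the cells with Fos and in 4.44% of the 45 cells without it. In mesenchymal-like cells the same shares were 62.2% and 16.5%. Fos and Junb were thus more often detected in the same cells, and this was not particular to these classes. With and without Fos, the Junb shares were 80.4% and 17.4% in P2 SC-like and 87.2% and 13.3% in E14 SC-like cells. They were 93.3% and 33.3% in immune-like and 53.1% and 32.0% in P2 HC-like cells. Few SC-like (23 at P2 and 15 at E14) or immune-like cells (9) lacked Fos. Unnamed P2 cells low in Epcam went the other way (18.0% and 20.7%).

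The members moved across clusters with the other immediate-early genes and not with heat-shock genes. A list of 26 immediate-early genes outside AP-1 and a list of 14 heat-shock genes, which encode chaperones, were summed per cluster. Across the 26 P2 clusters the sum of the members and that of the immediate-early genes had Pearson r 0.962 and Spearman rho 0.972, and across the 35 E14 clusters r 0.959 and rho 0.939. With the heat-shock genes r was −0.08 and rho −0.35 at P2, and r 0.24 and rho 0.24 at E14. These values describe clusters of 1 library each, on log2 CPM for sums and log2(CPM + 5) for single genes, which share that library's dissociation, depth and free RNA. Of the single members, Junb followed the immediate-early sum most closely (r 0.968 at P2 and 0.956 at E14). Jund followed it less closely (0.815 and 0.797), and Fosl2 (0.349 and 0.690) and Batf3 (−0.265 and −0.249) followed it least.

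**Figure D4:**
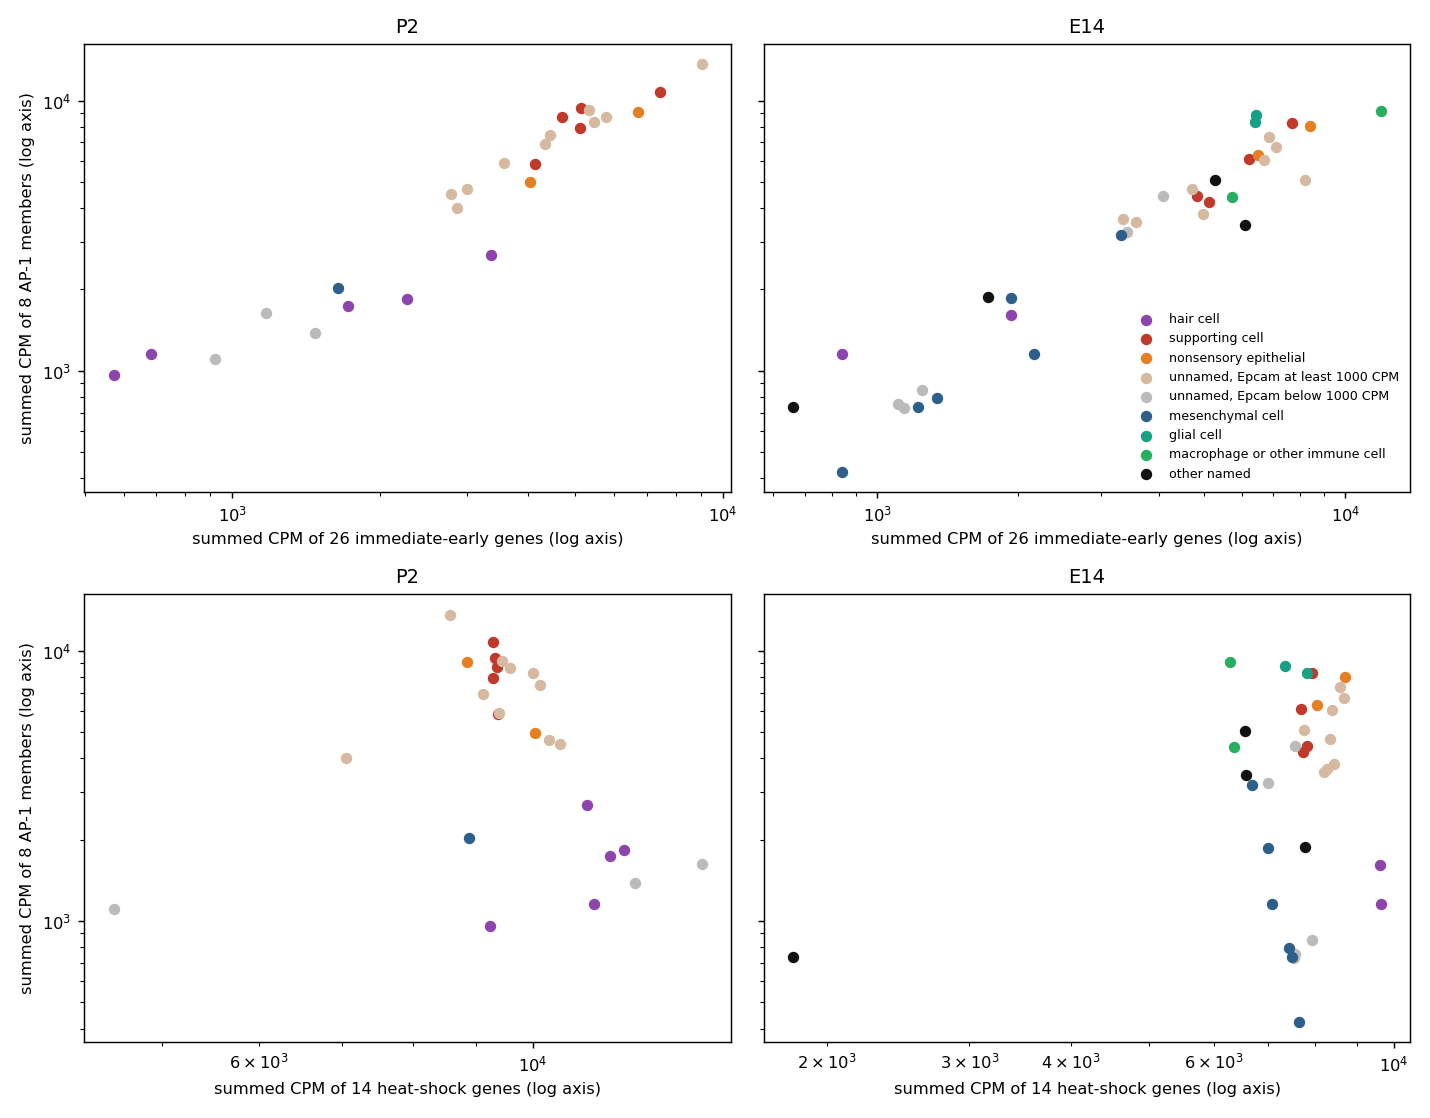
Summed CPM of the 8 members against that of 26 immediate-early genes (top) and 14 heat-shock genes (bottom) in each cluster, P2 left and E14 right, all axes logarithmic, coloured by class. The top panels form a band (r 0.962 and 0.959), and the bottom panels do not.

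Gene by gene, most of the immediate-early list was lower in HC-like cells too. In HC-like cells 20 of 26 were at least 2-fold lower than in SC-like cells at P2 and 22 of 26 at E14 (median log2 ratios −2.30 and −3.45). Ier2 had a ratio of 0.180 and Egr1 of 0.228 at P2, while Gadd45g, a stress and cell-cycle gene, was higher in HC-like cells (5.02 at P2 and 2.43 at E14). Of the 14 heat-shock genes, 5 were lower and 3 higher at P2, and 3 lower and 3 higher at E14 (median log2 ratios −0.02 and 0.04), with Hsph1 at 7.41 and Hspa5 at 0.182 at P2. In the E14 epithelial over non-epithelial comparison 14 immediate-early genes were higher and 2 lower (median 1.06), and 3 heat-shock genes were higher and 0 lower (median 0.30), beside a median of 1.14 for the members and 0.13 for all genes. The sums did not follow the members in every class. The summed immediate-early level was 6757 CPM in E14 SC-like cells, against 10691 CPM in immune-like, 6412 CPM in glial-like and 1764 CPM in mesenchymal-like cells of E14, so SC-like cells were above glial-like cells in it and below them in the sum of the members (6940.3 against 8492 CPM). Between ages, 1 immediate-early gene was higher and 6 lower at P2 in SC-like cells, and 5 of the 24 compared were higher and 0 lower in HC-like cells. Heat-shock genes were higher for 3 of 14 and lower for 0 in each of these classes. The part of dissociation in the members' levels was not tested.

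Genes that act before AP-1 and after it were listed too, and their counts stand beside shares over all genes of 20.8% higher and 23.0% lower for HC-like over SC-like cells at P2, 18.1% and 22.0% at E14, and 21.4% and 15.2% for E14 epithelial cells. Of 15 upstream MAP kinases and serum response factor genes, 1 was higher and 2 lower in HC-like than in SC-like cells at each age. Map2k1, the kinase MEK1, was among those lower (0.336 at P2 and 0.309 at E14), and Mapk10, a JNK kinase of neurons, was higher at P2 (20.7). Of 8 MAP kinase phosphatases, 2 were higher and 4 lower in HC-like cells at P2, and Dusp5, which acts on ERK, had a ratio of 0.0459 at P2 and 0.0350 at E14. In E14 epithelial over non-epithelial cells 5 of 8 phosphatases were higher and 1 lower, with Dusp5 at 12.2 and Dusp2 at 0.0446. Of 16 genes listed as AP-1 targets, 12 had enough UMIs in that comparison, and 2 were higher and 7 lower (median log2 ratio −1.38), with Ccl2 at 0.0212 and Hmox1 at 0.133. Of 10 related leucine-zipper genes, 3 of the 9 compared were higher and 0 lower, with Fosl1, a close relative of Fosl2, at 24.9 and Maff at 4.73.

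The genes most like each member across clusters were taken from 8218 genes by the lower of the 2 libraries' Pearson r. For Fos they were Egr1 (0.957), Jun (0.942), Nr4a1, Ier2 and Maff, and for Jun they were Fos (0.942), Nr4a1, Egr1, Ier2 and Klf6. For Fosb they were Nr4a1 (0.887), Fos, Maff, Cyr61 and Ier2, and for Junb Ier2 (0.931), Egr1, Dusp1, Zfp36 and Fos. Jund was most like Btg2 (0.845), then Maff, Ppp1r15a, Egr1 and Fos, and Atf3 most like Dusp1 (0.886), then Klf6, Jun, Junb and Zfp36. Fosl2 and Batf3 had weaker matches, with Abca1 (0.682), Gm26532, Rbms1, Fcho2 and Ppp2r5a for the one and Mpp6 (0.594), Casp8ap2, Arf2, Pias3 and Pcca for the other.

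The members' summed level was lower in cells with a high mitochondrial share, a sign of damage, in most classes. In P2 SC-like cells it was 9245 CPM below 2% mitochondrial UMIs, 8892 CPM at 2 to 4%, 8444 CPM at 4 to 8% and 4805 CPM at 8 to 15%. In P2 HC-like cells it was 1954, 1693 and 1111 CPM in the upper 3 of these bins. E14 SC-like cells did not follow this order, with 5485 CPM below 2%, 7212 CPM at 2 to 4% and 5059 CPM at 4 to 8%. In every bin that held both classes, HC-like cells were below SC-like cells. Barcodes removed for more than 15% mitochondrial UMIs had 2053 CPM at P2 and 1846 CPM at E14.

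**Figure D5:**
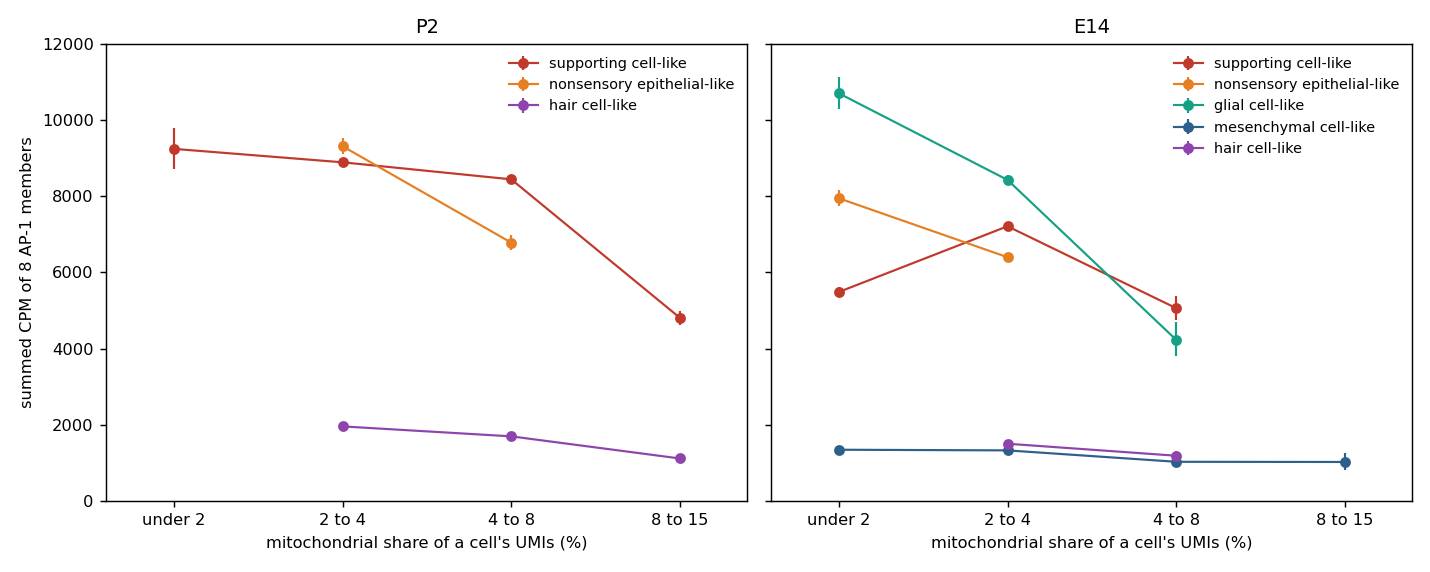
Summed CPM of the 8 members in cells binned by the mitochondrial share of their UMIs, P2 left and E14 right, with 95% counting intervals (bins of under 20 cells are left out). P2 SC-like cells drop to 4805 CPM in the highest bin, and HC-like cells stay below SC-like cells in every shared bin.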

How the data were processed

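Utricular sensory epithelium of P2 and E14 wild-type mice (1 library each) was profiled with the 10x 3′ v3.1 kit. The authors deposited raw UMI counts per gene and barcode. Per the submitters' notes, Cell Ranger 3.1.0 and Seurat 4.1.1 were used. They name both GRCm39 and mm10, and the build behind the counts was not settled from them, so gene positions come from the GRCm38 annotation given with the reference, whose identifiers matched those of all 8 members in the files.

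Barcodes were dropped below 500 genes or 1000 UMIs, or above 15% mitochondrial content. Doublet scores from simulated pairs removed the top 0.8% per 1000 barcodes, which is 5.00% of P2 and 12.5% of E14 barcodes that passed. Each library was clustered alone (2000 variable genes, 30 components, 15 neighbours, Leiden resolution 1), without the members, the listed genes, mitochondrial, ribosomal and haemoglobin genes. Clusters were named from 124 markers of 12 cell classes, with at least 3 markers required. A cluster stayed unnamed when 2 classes tied, when markers of another class led its top 10 genes, or when its median depth was under 33.3% of the library's with none of its markers in that top 10, which left out 3 P2 clusters with 4 to 8 HC markers. A marker counted when seen in at least 20% of cells, enriched at least 2-fold and at no less than 20% of its highest cluster level, a rule set after the marker levels had been seen. Clusters rich in Epcam had at least 1000 CPM of it.

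UMIs were summed per class and given as CPM with exact Poisson intervals, and ratios with exact conditional binomial intervals. A call was a ratio of at least 2-fold with at least 10 UMIs in one group. Intervals cover counting error only, since cells are not replicates, and no p-values were computed. Genes named from each list were the 4 most abundant and the 3 with the largest ratio each way with at least 100 UMIs, and examples were taken from these. Like genes had at least 500 UMIs in each library. The ratio code was tested on simulated data. Python 3.11.15, scipy 1.17.1, scikit-learn 1.9.0 and leidenalg 0.10.2 were used. The members and lists were chosen with earlier results of these data known. The alternatives covered filters, doublet rates, clustering resolution, scaling, fold thresholds and thinning. Those that changed filters, doublet rates or resolution were clustered and named anew, so their classes can hold other cells.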

Additional observations from a re-analysis of the deposited data

Results flagged for a closer look

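Atf3 was on opposite sides of 1 between ages in the 2 sensory classes. The P2 over E14 ratio was 2.29 in HC-like cells, against 0.350 in SC-like cells, and both intervals leave out 1. The difference between the classes was not tested, since there is 1 library per age. The HC-like value rests on 203 UMIs at P2 and 17 UMIs at E14, where the level (7.43 CPM, 4.33 to 11.9) overlapped that of red blood cell-like cells (17.8 CPM, 9.94 to 29.3). Over all alternatives it lay between 0.25 (with an unnamed E14 cluster added) and 5.73 (after thinning).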

How the results depend on the processing

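The HC-like over SC-like calls moved least: 6 members were at least 2-fold lower at each age under every alternative run, except 5 at E14 after thinning, and without a filter on barcodes 1 member was higher at P2. The P2 over E14 counts in HC-like cells (2 higher, 0 lower) moved under the largest number of settings. They were 1 higher without the barcode filter, at no more than 5% mitochondrial UMIs, with doublets kept and with doublets removed at 2 times the rate, 0 higher and 2 lower under the stricter filter, 0 higher and 1 lower at resolutions 0.5 and 2, and 0 higher at a 3-fold threshold. Without the P2 Hsd11b2 cluster 0 were higher, where 9.57% of 12888 genes were higher and 5.81% lower. With the unnamed E14 Pou4f3 cluster 0 were higher and 1 lower, with Atf3 at 0.25, where 7.73% of 13277 genes were higher and 8.77% lower. The Atf3 ratio there turned to 0.481 (stricter filter), 0.703 (doublets kept), 0.348 (resolution 0.5) and 0.348 (resolution 2). In SC-like cells (0 higher, 3 lower) 1 was higher at 5% mitochondrial UMIs and at 1.5-fold, and 1 was lower at 3-fold and after thinning. In nonsensory cells (0 each way) 1 was higher without the filter, at 5% mitochondrial UMIs, with doublets removed at 2 times the rate, at 1.5-fold and after thinning, and 1 was lower after thinning, with the mean of each cell's own CPM, and between the Kcne1-highest or the Prss56-highest clusters. In mesenchymal-like cells 5 were higher at 1.5-fold and 1 lower by mean CPM per cell, and over all kept cells 3 were higher at 1.5-fold and 0 at 3-fold. For epithelial over non-epithelial cells, 2 members were higher at 3-fold at each age. At P2 2 were lower without the filter, and at 5% mitochondrial UMIs 0 were higher and 3 lower, with Fosb 0.472, Jun 0.869, Junb 0.573, Jund 0.787 and Atf3 0.315. Between the Kcne1-highest clusters 11.7% of all genes compared were higher and 14.5% lower, and between the Prss56-highest ones 12.0% and 12.7%. For the other settings in this paragraph no share over all genes is given, so their counts are not read as results about the members. The causes were not tested. Of the ratios and shares under the alternative settings, 462 stayed within the counting interval of the value in the text, 340 moved beyond it and 9 that had been called at 2-fold crossed 1; ratios not called that crossed 1 are counted among the others. Scaling by the median of ratios shifted log2 ratios by 0.12 (P2) and 0.32 (E14) for HC-like over SC-like cells, 0.14 (E14) and −0.26 (P2) for epithelial cells, −0.13 for mesenchymal-like and 0.14 for all kept cells. No paired analysis was possible because each age has 1 library, and no replicate could be left out.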
